A study of Mus musculus with 28 samples.

Results

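CC chemokines are small secreted proteins that draw leukocytes into tissue. The 9 genes described here are the ligands Ccl2, Ccl7, Ccl8, Ccl11, Ccl3, Ccl4, Ccl6 and Ccl9 and the receptor Ccr2, out of 18194 genes tested. Every probe set annotated to 1 gene and that gene a member was taken, which gave 14 probe sets, and each gene is represented by its probe set with the highest mean over all arrays. The RNA came from retroperitoneal fat pads of 9-week-old mice, strain C57BK/6J as the labels spell it, that ate a control diet or a diet holding 0.5% CLA, conjugated linoleic acid in its trans-10 cis-12 form, which is known to reduce fat mass in mice. The 14 groups are the CLA diet and the control diet at days 1, 2, 3, 4, 7, 10 and 17 of feeding, with 2 arrays each and 28 in all. The labels describe pads pooled from 10 mice and name no gene manipulation or further agent. Whether both arrays of a diet and day came from separate pools is unclear from them, so the p-values of single days may measure technical spread only. The series counts 140 mice, and 28 separate pools of 10 mice would need more mice than that. Adiponectin (Adipoq), the secreted product that defines adipocytes, had a mean log2 value of 13.68 on the control arrays and 12.71 on the CLA arrays.

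CC ligands bind G protein-coupled receptors on leukocytes, and the bound receptor signals through Gi proteins, phosphoinositide 3-kinase gamma and Rac to steer the cell along the gradient. Ccl2 and Ccl7 act on Ccr2, the receptor by which classical monocytes leave the marrow and enter inflamed tissue, including the fat of obese animals. Ccl3 and Ccl9 act through Ccr1, and Ccl4 draws monocytes and T cells. Ccl8 of the mouse acts through Ccr8, and Ccl11, or eotaxin, through Ccr3 on eosinophils and mast cells.

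All 8 ligand genes lie on chromosome 11 and Ccr2 lies on chromosome 9. In the order of protein-coding genes in the RefSeq table (GRCm38.p6), Ccl2, Ccl7 and Ccl11 stand next to each other, followed by Ccl12 and Ccl8, and a further run holds Ccl9, Ccl6, Ccl3 and Ccl4 after Ccl5. Of the 9 genes, 5 were matched to the RefSeq promoter table by symbol, and the promoters of Ccl2, Ccl4, Ccl7 and Ccl11 were not used here. The 250 bases before the start are shown for the adjoining genes Ccl9, Ccl6 and Ccl3, which were higher together on CLA, and for Ccl8 of the other run. Capitals mark matches, on either strand, to TATAAA (the TATA box), TGANTCA (AP-1), GGNNTTTCC and GGNNTTCCC (forms of the NF-kB site), TTGCNNAA (C/EBP) or TTCNNNGAA (STAT).
Ccl9, chr11:83578637-83578886, minus strand: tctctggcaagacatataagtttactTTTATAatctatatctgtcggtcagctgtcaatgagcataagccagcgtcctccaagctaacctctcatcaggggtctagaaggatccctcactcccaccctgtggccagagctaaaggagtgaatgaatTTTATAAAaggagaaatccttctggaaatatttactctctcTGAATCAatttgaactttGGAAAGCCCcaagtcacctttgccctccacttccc
Ccl6, chr11:83593088-83593337, minus strand: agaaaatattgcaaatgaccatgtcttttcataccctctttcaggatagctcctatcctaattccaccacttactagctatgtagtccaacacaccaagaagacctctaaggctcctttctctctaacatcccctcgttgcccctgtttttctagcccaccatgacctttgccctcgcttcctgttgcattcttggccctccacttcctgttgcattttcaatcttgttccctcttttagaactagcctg
Ccl3, chr11:83649379-83649628, minus strand: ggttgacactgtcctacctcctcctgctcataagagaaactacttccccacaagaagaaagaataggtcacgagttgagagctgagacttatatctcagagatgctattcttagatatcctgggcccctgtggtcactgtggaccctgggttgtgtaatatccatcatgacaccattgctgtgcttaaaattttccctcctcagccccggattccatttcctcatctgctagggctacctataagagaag
Ccl8, chr11:82114935-82115184, plus strand: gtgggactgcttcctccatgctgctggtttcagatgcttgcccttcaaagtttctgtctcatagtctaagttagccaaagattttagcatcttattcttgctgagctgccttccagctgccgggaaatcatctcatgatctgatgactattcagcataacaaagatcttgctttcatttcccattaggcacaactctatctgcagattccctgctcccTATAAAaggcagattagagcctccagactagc

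The Ccl9 window held 5 matches. They are 3 to the TATA box, of which 2 overlap each other, 1 to AP-1 (TGAATCA, 53 to 47 bases before the start) and 1 to a form of the NF-kB site (GGAAAGCCC, matched on the reverse strand, 35 to 27 bases before the start). The Ccl8 window held 1 match, TATAAA at 32 to 27 bases before the start. None of the 6 patterns was found in the windows of Ccl6, Ccl3 or Ccr2. Of 32851 promoter windows of the same length, 12.4% held TATAAA, 6.75% TGANTCA, 4.93% GGNNTTTCC, 4.99% GGNNTTCCC, 9.56% TTGCNNAA and 7.02% TTCNNNGAA. These are letter matches and no binding was measured.

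1 array stands apart and bears on every result. The library labelled control day 2 replicate 1 read 10.09 for Ccl2, against 5.92 on the other array of its group and at most 6.61 on the other 13 control arrays. It was also above its partner for the 8 other genes, at 8.12 against 4.49 for Ccl7, 9.92 against 7.01 for Ccl8, 5.72 against 3.42 for Ccl3, 11.85 against 10.54 for Ccl6, 11.77 against 9.76 for Ccl9 and 9.36 against 7.76 for Ccr2. The gap was smaller for Ccl4 (5.57 and 5.29) and Ccl11 (8.72 and 8.10). For Ccl2, Ccl7, Ccl8, Ccl11 and Ccr2 it was at or above the mean CLA level of the other 6 days. Its correlation across genes was 0.981 with its partner, 0.988 and 0.979 with the CLA arrays of day 2, and 0.972 to 0.985 over the other 13 control arrays. The mean log2 value of 4 monocyte markers was 10.0 on it and 7.67 to 8.19 on the other control arrays. Of these, Chil3 read 9.32 against 3.37 on its partner and Plac8 9.78 against 7.71. Fn1 and F13a1 differed less, at 10.42 against 10.04 and 10.50 against 10.13. The mean of 9 neutrophil markers was 4.78 on it and 3.96 to 4.67 on the other control arrays. That of 9 macrophage markers was 8.31 and 7.10 to 7.63, and that of 8 adipocyte markers 11.17 and 11.21 to 12.14. The CLA arrays ran from 9.96 to 10.85 for the adipocyte markers. It lay between the diets there, just below the lowest other control array, control day 1 replicate 1 at 11.21. It was kept under its label, and results that change when it is left out are given both ways. What part its labelling has in these values was not tested.

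Over all 7 days, 8 of the 9 genes were higher on CLA and none was lower, where 18.7% of all genes tested were called higher and 19.8% lower. The largest difference was that of Ccl2, 4.12 ± 0.38 on the log2 scale (SE, n = 7 days, adjusted p = 6.28e-05), a 17.3-fold higher level. Ccl7 followed at 3.28 ± 0.33, Ccl9 at 2.61 ± 0.17, Ccl3 at 2.43 ± 0.25, Ccl8 at 2.30 ± 0.25, Ccl6 at 1.74 ± 0.13, Ccr2 at 1.54 ± 0.08 and Ccl4 at 1.16 ± 0.11, each with an adjusted p between 7.52e-06 and 0.000141. Ccl11 did not pass, at 0.29 ± 0.16 (adjusted p = 0.2). With the 28 arrays in place of the group means as the unit it passed (adjusted p = 0.0111), so that 9 of 9 were higher, where 22.4% of all genes were. The median of the 9 differences was 2.30 and that of all genes tested was -0.03. These calls held for the 8 genes without any single array and without any single day, and each array left out moved the Ccl2 difference only between 3.82 and 4.41.

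By day, 7 of the 9 genes were called higher on day 1 (7.96% of all genes), 7 on day 2 (4.84%), 8 on day 3 (11.3%), 8 on day 4 (12.8%), 7 on day 7 (8.74%), 8 on day 10 (10%) and 9 on day 17 (11.5%). No member was called lower on any day, where 10.8%, 5.34%, 11%, 11.3%, 8.57%, 10.2% and 8.78% of all genes were, and the unadjusted p was under 0.05 for 8 of the 9 on days 1 to 10 and for 9 on day 17. Between 3714 (day 2) and 5846 (day 4) of all 18194 genes had such a p on a day. Both CLA arrays lay above both control arrays for 8 of the 9 genes on days 1, 2, 4, 7 and 10, where 22.5%, 19%, 28.5%, 23.7% and 23.4% of all genes did so. They did for 9 on days 3 and 17, where 29.1% and 30.1% did. The median difference of the 9 genes was 1.64 on day 1, 1.86 on day 2, 2.95 on day 3, 2.84 on day 4, 1.64 on day 7, 1.82 on day 10 and 2.08 on day 17. With the array that stands apart left out, 8 genes were called higher on days 1, 2, 3, 4, 7 and 10 (8.61%, 7.51%, 11.6%, 13.1%, 9.2% and 10.4% of all genes), 9 on day 17 (12.1%) and 8 over all days (18.9%). The day 2 calls also rest on its CLA arrays. Without CLA day 2 replicate 2, Ccl2, Ccl3, Ccl6 and Ccr2 did not pass on that day (adjusted p = 0.132, 0.146, 0.0975 and 0.072), and without CLA day 2 replicate 1 Ccl2 did not (adjusted p = 0.119).

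**Figure D1:**
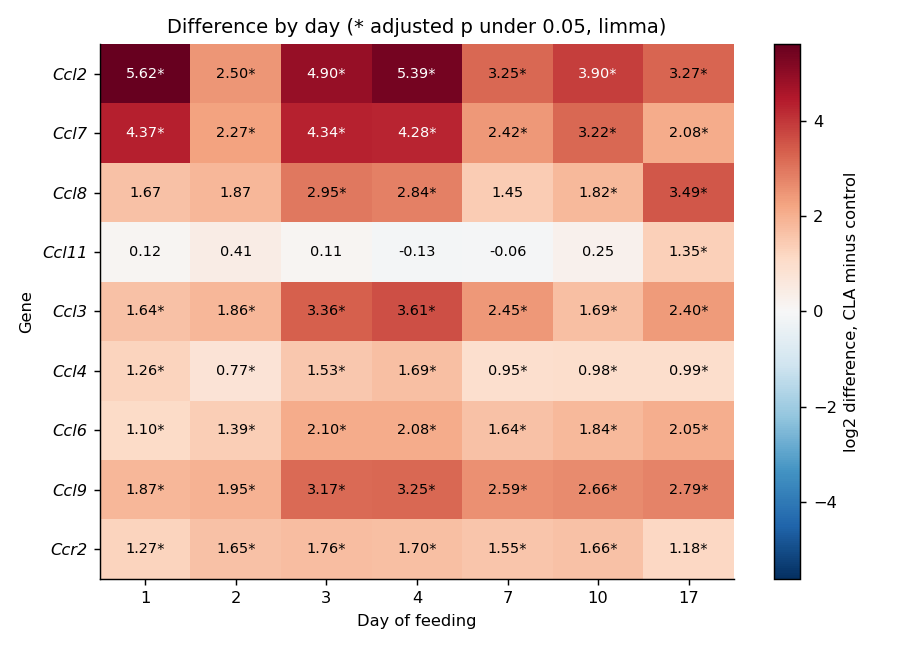
Log2 difference, CLA minus control, of each gene (rows) on each day of feeding (columns), from the model of 28 arrays with 2 arrays per diet and day. Asterisks mark an adjusted p under 0.05, and Ccl11 is near 0 on every day except day 17, at 1.35.

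Ccl2, the monocyte attractant also called MCP-1 (probe set 1420380_at), read 10.90 and 11.51 on the CLA arrays of day 1, 10.50 and 10.51 on day 2, 10.84 and 10.88 on day 3, and 10.90 and 10.77 on day 4. The later CLA arrays read 9.11 and 9.58 on day 7, 9.43 and 9.59 on day 10, and 8.75 and 8.74 on day 17. The control arrays ran from 5.29 to 6.61 apart from the 10.09 of the library named above. Every CLA array therefore lay above the other 13 control arrays, and the arrays of days 1 to 4 lay above those of days 7 to 17. The difference was 5.62 ± 0.73 on day 1 (SE, n = 2 arrays per diet, adjusted p = 1.73e-05), which is 49.2-fold, and 5.39 ± 0.73 on day 4, 41.8-fold. It was 3.25 ± 0.73 on day 7 and 3.27 ± 0.73 on day 17, 9.61-fold. On day 2 it was 2.50 with all arrays (adjusted p = 0.0336), 4.59 ± 0.33 without the array that stands apart and 0.42 without its partner (adjusted p = 0.779). Without control day 7 replicate 2 the call of day 7 was lost (adjusted p = 0.0523).

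Ccl7, or MCP-3, which shares the receptor of Ccl2 and adjoins it on the chromosome (probe set 1421228_at), read 8.15 and 9.27 on the CLA arrays of day 1, 8.21 and 8.94 on day 2, 8.34 and 8.90 on day 3, and 8.95 and 8.74 on day 4. It read 7.20 and 6.93 on day 7, 7.45 and 7.67 on day 10, and 6.50 and 6.75 on day 17. The control arrays ran from 3.79 to 5.05, apart from 8.12. As for Ccl2, all CLA arrays lay above the other 13 control arrays and those of days 1 to 4 lay above the later ones. The difference was 4.37 ± 0.70 on day 1 (adjusted p = 0.000175), 4.28 ± 0.70 on day 4 and 2.08 ± 0.70 on day 17 (adjusted p = 0.0423). The call of day 17 was lost in 12 of 28 runs that left out 1 array, with an adjusted p of up to 0.173, and that of day 2 in 23 of 28. On day 2 the difference was 2.27 with all arrays, 4.09 without the array that stands apart and 0.46 without its partner.

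Ccl8, or MCP-2 (probe set 1419684_at), read 8.59 and 8.19 on the CLA arrays of day 1 and 10.33 and 10.34 on day 2. The later values were 9.70 and 9.97 on day 3, 9.58 and 9.45 on day 4, 8.86 and 9.04 on day 7, 9.66 and 9.25 on day 10, and 10.55 and 10.24 on day 17. The control arrays ran from 6.26 to 8.07, apart from 9.92. CLA levels were thus high on days 2 and 17 and low on days 1 and 7, with no overlap with the other 13 control arrays. The difference on day 17 was 3.49 ± 0.59 (adjusted p = 0.000246), 11.2-fold, the highest of the 7 days. On days 1, 2 and 7 it was 1.67 ± 0.59, 1.87 ± 0.59 and 1.45 ± 0.59, and none of these passed (adjusted p = 0.0586, 0.052 and 0.116). Without the array that stands apart these 3 days passed, at 1.67, 3.33 and 1.45 with adjusted p = 0.00266, 3.99e-05 and 0.00761. Leaving out its partner instead made days 1 and 7 pass too and took day 2 to 0.42. On day 10 the difference of 1.82 ± 0.59 (adjusted p = 0.0358) was lost without any of the 4 arrays of that day, at an adjusted p of up to 0.229.

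Ccl11, eotaxin (probe set 1417789_at), differed from the others. Its CLA arrays read 7.95 and 8.61 on day 1, 9.08 and 8.55 on day 2, 8.26 and 8.30 on day 3, 8.12 and 8.01 on day 4, 8.38 and 8.56 on day 7, 9.02 and 8.45 on day 10, and 9.47 and 9.52 on day 17. The control arrays ran from 8.01 to 8.72, and on day 17 they read 8.04 and 8.26. Both day 17 CLA arrays lay above every other array of either diet, and the diets overlapped on days 1, 2, 4, 7 and 10 and not on day 3. The day 17 difference was 1.35 ± 0.24 (adjusted p = 0.00033), 2.54-fold, and it stayed between 1.24 and 1.46 whichever array was left out. On the other 6 days it lay between -0.13 and 0.41, and no adjusted p was under 0.385. The day 2 difference was 0.72 without the array that stands apart (adjusted p = 0.0931). Markers of mast cells were also higher on day 17, where 5 of 7 rose with a median difference of 1.53. Of the same markers 3 of 7 rose on day 7 (median 0.65) and 4 of 7 on day 10 (median 1.28). Ccl11 differed by -0.06 ± 0.24 and 0.245 ± 0.24 on those days and did not pass. On day 17 the mean log2 value of the 7 was 6.56 to 6.57 on the CLA arrays and 5.09 on both control arrays. Of 5 eosinophil markers 1 rose on day 17, and their mean ran from 2.75 to 3.07 over all CLA arrays and from 2.77 to 3.06 over all control arrays. These means lie below the array medians of 4.1 to 4.2, and such low signals say little of eosinophils. The part of these cells in the Ccl11 value was not tested, and in such bulk samples more cells of a type and more RNA per cell cannot be told apart.

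**Figure D2:**
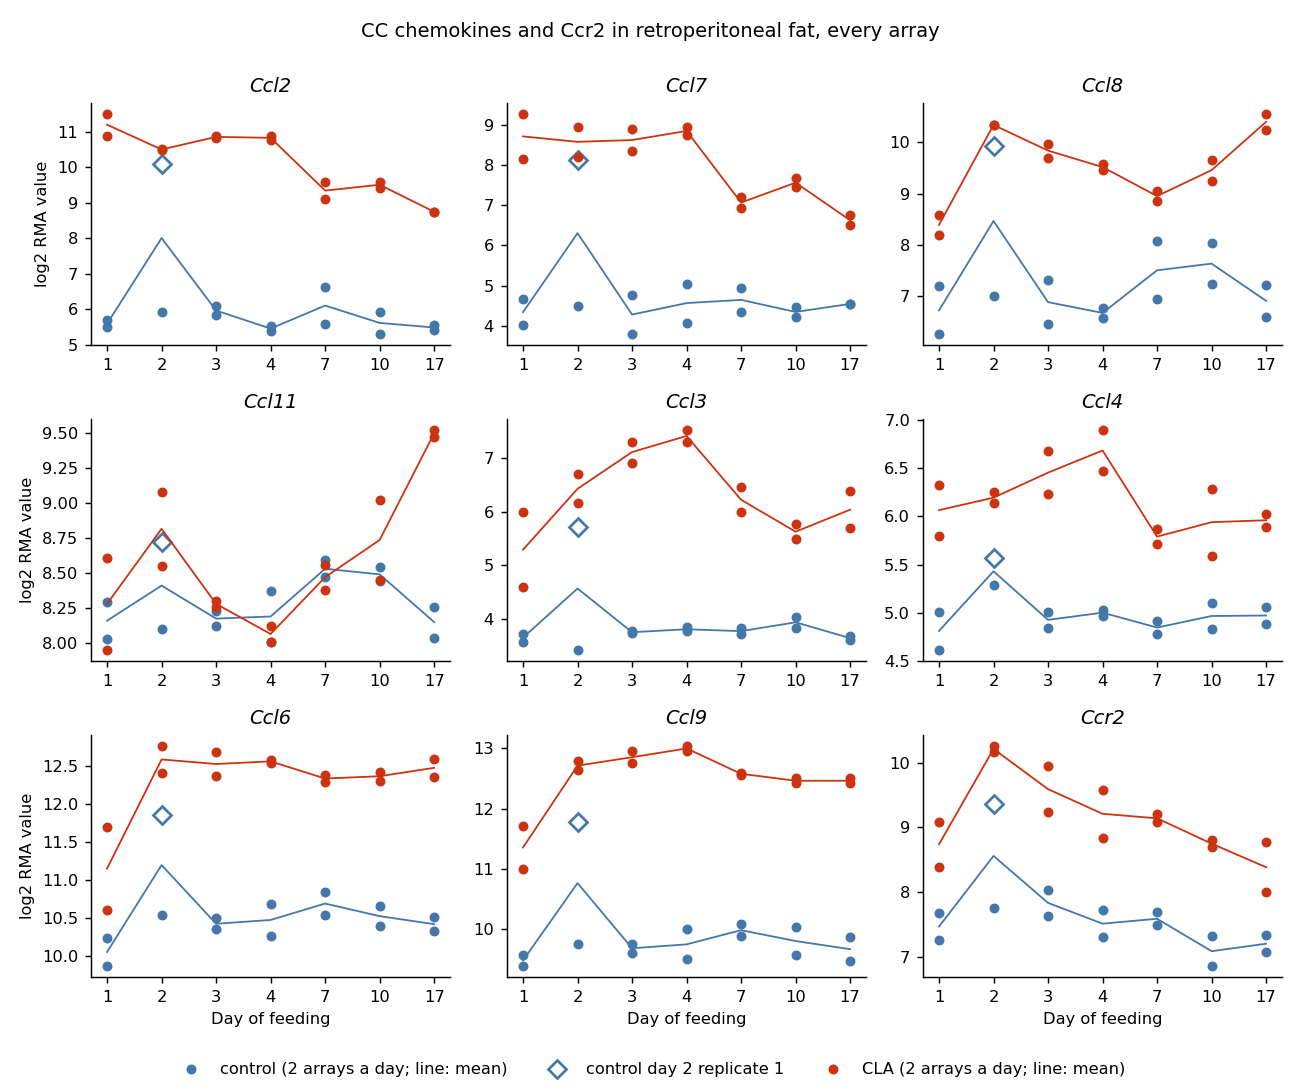
Log2 values of each gene on all 28 arrays by day of feeding (CLA red, control blue), with points for arrays and lines through the mean of each group. The open diamond is the library labelled control day 2 replicate 1, at 10.09 for Ccl2 where the other array of its group reads 5.92.

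Ccl3, or MIP-1 alpha (probe set 1419561_at), read 4.6 and 5.99 on the CLA arrays of day 1, 6.16 and 6.70 on day 2, 6.92 and 7.31 on day 3, and 7.30 and 7.53 on day 4. It then read 5.99 and 6.46 on day 7, 5.49 and 5.77 on day 10, and 5.70 and 6.38 on day 17. The control arrays ran from 3.42 to 4.04, apart from 5.72. All CLA arrays lay above the other 13 control arrays, with the highest values on days 3 and 4. The difference was 1.64 ± 0.49 on day 1 (adjusted p = 0.0225), 3.61 ± 0.49 on day 4 (adjusted p = 1.49e-05), 12.2-fold, and 2.40 ± 0.49 on day 17. The day 1 call rests on its 4 arrays. The difference was 0.95 without CLA day 1 replicate 2 (adjusted p = 0.287), and the call was also lost without either control array of that day (adjusted p = 0.0598 and 0.0977). On day 2 it was 1.86 with all arrays, 3.01 without the array that stands apart and 0.71 without its partner (adjusted p = 0.565). On day 10, at 1.69 ± 0.49, the call was lost without any of the 4 arrays of that day, with an adjusted p of up to 0.104.

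Ccl4, or MIP-1 beta, which adjoins Ccl3 (probe set 1421578_at), ran from 5.59 to 6.90 on the CLA arrays, with a median of 6.19, and from 4.61 to 5.57 on the control arrays, with a median of 4.99. It is the 1 gene of the 9 for which every CLA array lay above all 14 control arrays. The difference was 1.26 ± 0.23 on day 1 (adjusted p = 0.000547) and 1.69 ± 0.23 on day 4 (adjusted p = 1.49e-05), the highest of the 7 days. It was between 0.77 and 1.53 on the other 5 days, about 2-fold from day 7 on at 1.93-fold, 1.97-fold and 1.99-fold. The day 2 call of Ccl4 was lost without CLA replicate 1 or 2 or control replicate 2 of that day (adjusted p = 0.0993, 0.173 and 0.392). Calls of Ccl4 were also lost on day 7 without CLA or control replicate 2 of that day (adjusted p = 0.0552 and 0.0507). They were lost on day 10 without CLA replicate 2 or control replicate 1 (adjusted p = 0.107 and 0.052).

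Ccl6 and Ccl9, myeloid chemokines of rodents that lie side by side, had flat courses after day 1 on the probe sets used. Ccl6 (probe set 1417266_at) read 10.61 and 11.69 on the CLA arrays of day 1 and between 12.29 and 12.76 on the 12 later CLA arrays, while the control arrays ran from 9.87 to 10.84 apart from 11.85. Ccl9 (probe set 1417936_at) read 11.00 and 11.71 on the CLA arrays of day 1 and between 12.42 and 13.04 on the later ones, against control arrays from 9.39 to 10.08 apart from 11.77. All later CLA arrays of both genes lay above all 14 control arrays, and in both the CLA arrays of day 1 were the lowest of their diet. The Ccl6 difference was 1.10 ± 0.33 on day 1 (adjusted p = 0.0239) and 2.10 ± 0.33 on day 3, 4.27-fold. The Ccl9 difference was 1.87 ± 0.39 on day 1 (adjusted p = 0.00179) and 3.25 ± 0.39 on day 4 (adjusted p = 3.92e-06), 9.48-fold. On day 2 Ccl6 was at 1.39 and Ccl9 at 1.95 with all arrays, at 2.04 and 2.95 without the array that stands apart, and at 0.73 and 0.94 without its partner, where neither passed (adjusted p = 0.352 and 0.0827). The day 1 call of Ccl6 was lost without CLA day 1 replicate 2, at 0.56 (adjusted p = 0.34), and without control day 1 replicate 1 (adjusted p = 0.141).

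Ccr2, the receptor of Ccl2 and Ccl7 (probe set 1421186_at), read 9.09 and 8.39 on the CLA arrays of day 1, 10.16 and 10.26 on day 2, 9.95 and 9.23 on day 3, and 9.58 and 8.84 on day 4. It read 9.08 and 9.20 on day 7, 8.80 and 8.70 on day 10, and 8.77 and 8.0 on day 17. The control arrays ran from 6.86 to 8.04, apart from 9.36. CLA arrays were highest on day 2, and 1 array, CLA day 17 replicate 2, fell within the range of the other 13 control arrays though above both of its own day. The difference was 1.27 ± 0.40 on day 1 (adjusted p = 0.0301), 1.76 ± 0.40 on day 3 and 1.18 ± 0.40 on day 17 (adjusted p = 0.0413), between 2.27-fold and 3.38-fold over the 7 days with all arrays. On day 2 it was 1.65 with all arrays, 2.45 without the array that stands apart, which is 5.46-fold, and 0.85 without its partner (adjusted p = 0.378). The day 17 call was lost in 5 of 28 runs that left out 1 array, with a difference of 0.80 without CLA day 17 replicate 1 (adjusted p = 0.353). The day 1 call was lost without CLA replicate 1 or control replicate 2 of that day (adjusted p = 0.226 and 0.172).

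Both CLA arrays of day 1 and control day 1 replicate 1 also differed from the other days in signs of RNA quality. Control day 1 replicate 2 did not, so these signs were not balanced between the diets. The log2 signal of the 3′ end of Actb minus that of its 5′ end was 2.28 to 2.72 on the CLA arrays of day 1 and 1.5 to 2.77 on its control arrays, against 0.77 to 1.87 on the other days. For Gapdh it was 1.27 to 1.31 on CLA, 0.15 to 1.33 on control and 0.15 to 1.20 on the other days. The part of this in the day 1 values was not tested. On that day 2 of 9 macrophage markers rose, Fcgr1, a high-affinity IgG receptor, at 2.35 and Cd14 at 0.61. The scavenger receptor gene Cd68 did not pass at 0.29 (adjusted p = 0.703), nor did Cx3cr1 at 0.31 and Lyz2 at 0.205. Csf1r lay below control without passing, at -0.51 (adjusted p = 0.0505 by limma), as did Mertk, Adgre1 and Itgam at -0.395, -0.30 and -0.18. When the array that stands apart was left out, Csf1r was called lower on day 1. The mean value of the 9 was 7.29 to 7.67 on CLA and 7.10 to 7.33 on control, so the diets overlapped. The part of such cells in the day 1 chemokine values was not tested. By day 17, 8 of the 9 macrophage markers rose. Of 4 monocyte markers 2 rose on day 1, Chil3 at 4.54 and Plac8 at 1.78, while Fn1 at -0.105 and F13a1 at 0.44 did not pass. The mean of the 4 was 9.45 to 9.47 on CLA and 7.68 to 7.92 on control.

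Whether the CLA difference itself changed with time was tested by the diet by day interaction. With all 28 arrays none of the 9 genes passed, where 9.82% of all genes did, and 2 had an unadjusted p under 0.05, as did 3713 of 18194 genes. The lowest adjusted p was that of Ccl11, 0.0567, followed by Ccl2 at 0.233. Without the array that stands apart, 5 of the 9 passed (10.6% of all genes): Ccl2 with adjusted p = 0.000423, Ccl7 with 0.0158, Ccl3 with 0.0202, Ccl11 with 0.0248 and Ccl8 with 0.0363. Leaving out its partner in place of it gave 6, the same 5 and Ccl9 (adjusted p = 0.000818). Both the day 2 value and the spread change when either array is left out. The count was 1 without CLA day 1, day 2 or day 10 replicate 1 or 2, each left out alone. The SE of a Ccl2 day difference fell from 0.73 to 0.27 without the array that stands apart.

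The same held for 2 contrasts of time. Late minus early takes the mean difference of days 1, 2 and 3 from that of days 7, 10 and 17, and it passed for none of the 9 with all arrays (9.71% of all genes, and 0 of the 9 and 4205 of all genes at an unadjusted p under 0.05). Without the array that stands apart it passed for 2 (9.27% of all genes), Ccl2 at -1.57 ± 0.23 (adjusted p = 0.000164) and Ccl7 at -1.69 ± 0.33 (adjusted p = 0.00232), so the differences of both were smaller late. Without its partner neither passed, Ccl2 at -0.18 (adjusted p = 0.68) and Ccl7 at -0.48 (adjusted p = 0.39), while Ccl9 passed in the other direction at 0.69 (adjusted p = 0.0202). Day 1 minus the later days passed for none with all arrays (15.9% of all genes, and 2 of the 9 and 5039 of all genes at an unadjusted p under 0.05). It passed for 4 without the array that stands apart (17.1%). Ccl2 was then further above control on day 1 than later, by 1.41 ± 0.29 (adjusted p = 0.00201), and Ccl3, Ccl6 and Ccl9 less far, at -1.11 ± 0.34, -0.86 ± 0.28 and -1.03 ± 0.23 (adjusted p = 0.0315, 0.0384 and 0.00421). Leaving out the partner gave 2, Ccl2 at 2.10 and Ccl7 at 1.57 (adjusted p = 5e-05 and 0.0143), and Ccl3, Ccl6 and Ccl9 did not pass.

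Within a diet, the levels of the CLA arrays differed by day for 6 of the 9 genes, Ccl3, Ccl4, Ccl6, Ccl9, Ccl11 and Ccr2 (25.3% of all genes), with Ccl11 at the lowest adjusted p, 0.00175. The Ccl9 call was lost in 26 of 28 runs that left out 1 array and the Ccl4 call in 18 of 28, at an adjusted p of up to 0.44 and 0.22. Without the array that stands apart all 9 passed (26.3% of all genes), Ccl2 with adjusted p = 3.32e-06. That count was 3 without CLA day 1 replicate 1, CLA day 2 replicate 1 or 2, CLA day 4 replicate 2 or CLA day 17 replicate 2. The control arrays gave no gene of the 9 that differed by day (0.115% of all genes, and 2 of the 9, Ccl2 and Ccr2, and 1069 of all genes at an unadjusted p under 0.05). Without the array that stands apart limma again called 0 of the 9 (0.0824% of all genes, and 0 of the 9 and 883 of all genes at an unadjusted p under 0.05). Without control day 2 replicate 2 the array that stands apart is the only one of its group. That run therefore cannot tell a change of the control level by day from the reading of that 1 array.

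**Figure D3:**
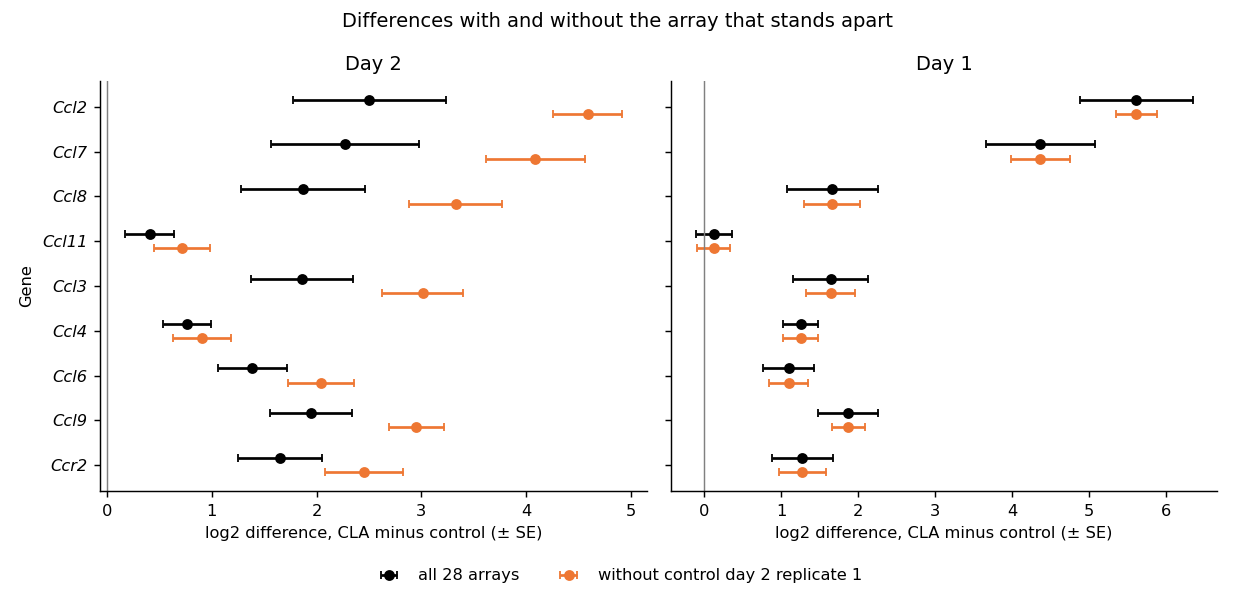
Log2 differences, CLA minus control, with their SE on day 2 and day 1, from all 28 arrays (black) and without the library labelled control day 2 replicate 1 (orange). On day 2 the Ccl2 difference moves from 2.50 to 4.59, and on day 1 the values are the same while the SE of Ccl2 falls from 0.73 to 0.27.

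The genes with more than 1 probe set can be read on each. The further probe set of Ccl6 (1420249_s_at) gave 2.44 ± 0.18 over all days and that of Ccl9 (1448898_at) 2.69 ± 0.23, both with a mean above control on every day. That of Ccl9 was not flat on CLA, at 9.66 and 11.11 on day 2 and 11.76 and 11.87 on day 4. Its arrays overlapped between the diets on day 1, at 7.80 and 9.02 on CLA and 5.46 and 8.16 on control. It did not pass in limma on days 1 and 2 (adjusted p = 0.106 and 0.0737 over 34958 probe sets). Of the 3 further probe sets of Ccr2, 1421187_at gave 1.24 ± 0.13, 1421188_at 1.18 ± 0.13 and 1460067_at 0.57 ± 0.13 over all days, adjusted p = 0.00013, 0.000185 and 0.00806 over 34958 probe sets. The last did not follow the others at the end of feeding, with differences of 0.06 ± 0.26 on day 10 and 0.08 ± 0.26 on day 17 (adjusted p = 0.927 and 0.906). The probe set of Ccr2 used above gave 1.66 and 1.18 on those days, so the 4 disagree there. On day 17 none of the 4 passed in limma over 34958 probe sets. The adjusted p was 0.0547 for the one used, 0.302 for 1421187_at and 0.129 for 1421188_at, so the day 17 call of Ccr2 holds only over genes. The same is true of Ccl7 on days 2 and 17 (adjusted p = 0.0657 and 0.0566 in limma over probe sets). It is also true of Ccl4 on day 2 (adjusted p = 0.0513). Taking the most variable probe set of each gene, which is 1421187_at for Ccr2, left Ccr2 called on day 4 alone, at 1.78.

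**Figure D4:**
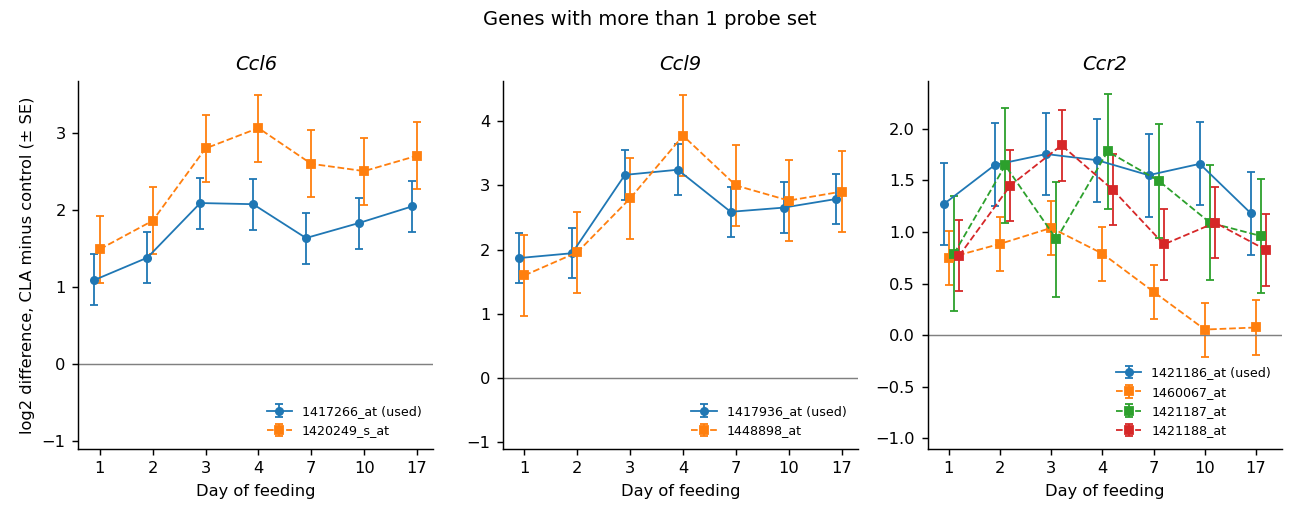
Log2 difference, CLA minus control, with its SE by day of feeding for every probe set of Ccl6, Ccl9 and Ccr2, with the probe set used drawn as a solid line. For Ccr2, 1460067_at falls to 0.06 and 0.08 on days 10 and 17 while the other 3 stay at 0.83 or above.

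The courses can be set side by side by their correlation over the 14 group means, which share the diets, the days and the array that stands apart, and are given as a description. Ccl2 and Ccl7 were closest to each other of all 18194 genes, r = 0.993, followed by the heme oxygenase gene Hmox1 with both (0.984 and 0.982). Ccl6 and Ccl9 correlated at 0.989 and Ccl3 and Ccl4 at 0.971. Closest to Ccl6 were Lcp1, Fcgr1 and Mrc1 (0.990 to 0.992), leukocyte and macrophage genes, and closest to Ccl9 were Fos, Basp1 and Sptlc2 (0.994). Ccl3 lay nearest to Haus8, Oasl1 and Samsn1 (0.984 to 0.987), Ccl4 to Gch1, Ccdc86 and Septin11 (0.982 to 0.991), Ccl8 to Rpl22, Rps3a1 and Plac8 (0.965 to 0.973), and Ccr2 to Fam126a, Zcchc2 and Lrrfip1 (0.962 to 0.964). Ccl11 had r between 0.18 and 0.62 with the 8 others, and the genes nearest to it were Gli3, Ift80 and Ang (0.896 to 0.911).

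Of the 11 other CC ligands listed, 9 were measured. Over all days 2 rose and none fell, where 18.7% of all genes were called higher and 19.8% lower. The count that rose is thus near the share of all genes. The median of the 9 was -0.04 beside -0.03 for all genes. Ccl24 was also called lower without the array that stands apart. Those that rose were Ccl12, the mouse MCP-5 that stands between Ccl11 and Ccl8, at 2.30 ± 0.39 (adjusted p = 0.00165), and Ccl5, or RANTES, at 1.46 ± 0.17 (adjusted p = 0.000208). Ccl12 was called on days 1, 3 and 4, at 4.10, 3.59 and 2.97, and not on days 2, 7, 10 and 17, at 1.78, 0.86, 1.28 and 1.53. It too was high on the array that stands apart, at 7.91 against 3.96 on its partner, and without that array days 2, 10 and 17 also passed and its interaction did, with adjusted p = 0.000123.

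Of 13 other CC receptors and decoys, 12 were measured, of which 4 rose and 1 fell over all days, with a median of 0.07. Of all genes 18.7% were called higher and 19.8% lower. Ccr1, a receptor of Ccl3 and Ccl9, was higher by 1.75 ± 0.22 (adjusted p = 0.000289), Ackr4, a scavenger of CC ligands, by 1.27 ± 0.19, Ccr7, which guides dendritic cells to lymph nodes, by 0.25 ± 0.06 and Ccr3, the Ccl11 receptor, by 0.23 ± 0.07 (adjusted p = 0.0229). The signals of Ccr7 (mean 3.11 on control, 3.36 on CLA) and Ccr3 (2.94 and 3.17) lay below the array medians of 4.1 to 4.2. Such small differences at low signal are weak ground for a rise of either receptor. The Ccr3 call was lost without day 2, 3, 10 or 17 (adjusted p = 0.0575, 0.0641, 0.0574 and 0.0619). It was also lost in 5 of 28 runs that left out 1 array, at an adjusted p of up to 0.0857, and Ccr3 is itself 1 of the 5 eosinophil markers. Ackr2, a decoy that degrades inflammatory CC ligands, was lower, at -0.42 ± 0.11 (adjusted p = 0.0152), and with the mean of all its probe sets it did not pass (-0.24, adjusted p = 0.0538). Ccr1 was called on days 1 to 4, at 1.88 to 2.64, and not on days 7, 10 and 17, at 0.87 to 1.21. Its day 2 difference was 3.19 without the array that stands apart, days 7 and 17 then passed too (adjusted p = 0.0183 and 0.0223) and so did its interaction (adjusted p = 0.024).

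**Figure D5:**
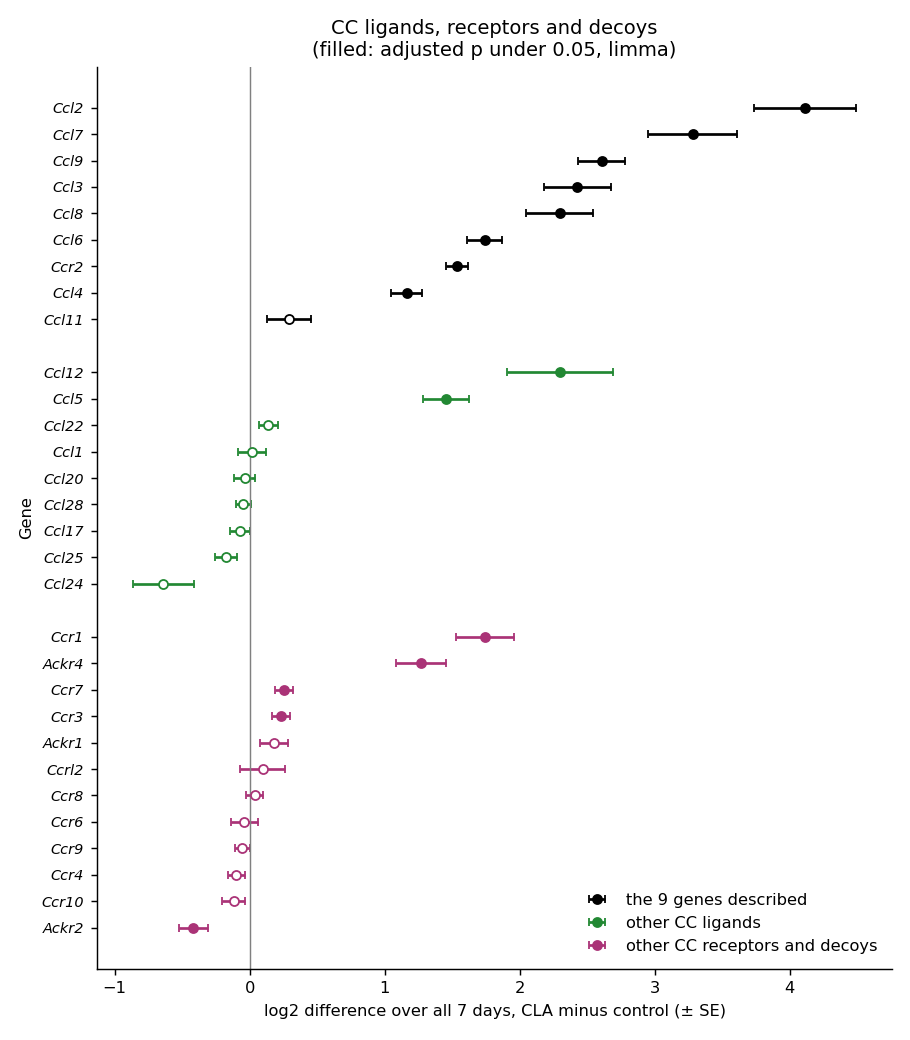
Log2 difference over all 7 days, CLA minus control, with its SE for the 9 genes (black), 9 other CC ligands (green) and 12 other CC receptors and decoys (purple), where filled points have an adjusted p under 0.05. Among the other ligands Ccl12 (2.30) and Ccl5 (1.46) lie apart from 0, and the rest lie at or below 0.14.

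Among 9 measured genes of 10 listed that carry the signal of chemokine receptors, 8 rose over all days and none fell, with a median of 1.19, and 9 rose without the array that stands apart. The largest was Pik3r5, the regulatory subunit of phosphoinositide 3-kinase gamma, at 2.95 ± 0.29 (adjusted p = 8.24e-05). Dock2, which activates Rac in leukocytes, was higher by 1.76 ± 0.31, Rac2 by 1.68 ± 0.21, the arrestin gene Arrb2 by 1.63 ± 0.23, the catalytic subunit gene Pik3cg by 1.19 ± 0.16 and Elmo1, a partner of Dock2, by 0.97 ± 0.13. On day 1 only 3 of these 9 genes were called higher, with a median of 0.28, and on day 4 8 of 9 were, with a median of 1.66. Most of these genes are expressed across leukocytes. Over all days 7 of 9 macrophage markers and 2 of 4 monocyte markers rose. Of 9 neutrophil markers 1 rose and 1 fell, 1 of 4 B cell markers rose and 1 of 7 mast cell markers rose. Of 8 T cell markers none rose and 1 fell. Of all genes 18.7% were called higher and 19.8% lower, so 1 called gene in such short lists says little of a cell type. All 8 adipocyte markers fell, with a median of -1.59. The part of a changed cell makeup in the chemokine values was not tested.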

How the data were processed

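Retroperitoneal fat pads were profiled on 28 Affymetrix arrays, 2 per diet and day. Per the labels, Trizol extracts gave 15 µg of total RNA for each biotin-labelled cRNA. The deposited values are log2 probe-set values that the authors made with RMA (version not stated), which corrects background, applies quantile normalization and summarises probes. They run from 1.90 to 14.18, array medians lie between 4.1 and 4.2. Precision is limited by how many arrays there are. The build behind the probe annotation is not given in the sources used here.

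Of 45101 probe sets, 34958 name 1 gene, 932 several and 9211 none in the annotation table, and 34754 matched the RefSeq table (GRCm38.p6) by gene ID. Each of 18194 genes is represented by its probe set with the highest mean. limma 3.58.1 in R 4.3.3 was fitted to all genes with the 14 groups as terms (14 residual degrees of freedom). It gave CLA minus control on each day, the interaction, the time contrasts and F tests within each diet. The difference over all days was fitted on group means with the day as a block (6 residual degrees of freedom). p-values are two-sided and adjusted by Benjamini-Hochberg within each comparison, and a gene is called below an adjusted p of 0.05. Errors are the model's SE. The fits were tested on simulated data. Plots used matplotlib 3.10.9 (Python 3.11.15).

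The members and lists were chosen with earlier results of these data known. Named were the 9 members, the called genes of 3 further lists (other CC ligands, other CC receptors and decoys, chemokine receptor signalling; at most 6 a list by size), and for each member the 3 genes with the highest correlation over group means. Marker genes and daily values of these lists are examples added after the values were seen. Of the listed genes, 14 were not analysed here. Alternatives were other scaling, probe sets, filters and variance models, and leaving out each array.

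The replicate numbers were checked for pairing. The correlation of the replicate differences of both diets ran from 0.098 to 0.566 over the 7 days and was positive on each. No pairing is known, so the numbers were not used as pairs in the main fits. An effect shared by same-numbered arrays can therefore be part of the values.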

Additional observations from a re-analysis of the deposited data

Results flagged for a closer look

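Among the named genes that carry the signal of chemokine receptors, the CLA difference changed with the day of feeding for 5, by the interaction test of limma on all 28 arrays. The adjusted p was 8.94e-05 for Dock2, 0.0152 for Arrb2, 0.0223 for Pik3r5, 0.0309 for Elmo1 and 0.0324 for Rac2. Without the library labelled control day 2 replicate 1 Elmo1 did not pass (0.0509) and the other 4 did. Over the 28 runs that left out 1 array, Elmo1 and Rac2 each lost the call in 8, with an adjusted p of up to 0.123 and 0.0995, Pik3r5 and Arrb2 in 2, with up to 0.0516 and 0.0787, and Dock2 in 0. Dock2 differed by -0.18 between the diets on day 1 and by 1.76 over all days. Pik3r5 differed by 1.84 on day 1 and by 2.95 over all days. None of the 9 chemokine genes passed this test with all arrays, where 9.82% of all genes did. Without the library labelled control day 2 replicate 1, Ccl2, Ccl7, Ccl3, Ccl11 and Ccl8 passed, as given above.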

How the results depend on the processing

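With all 28 arrays, centring each array on its median kept all 117 results of the 9 genes on their side of the threshold and in their direction. The number of members called over all days was 8 under each alternative run for it, array weights not being among them, except with the 28 arrays as the unit, where it was 9, with and without a replicate block, because Ccl11 passed. The interaction count moved from 0 to 1 with quantile normalization, the mean of all probe sets, the filter on dim probe sets, array weights and the replicate block, and the gene was Ccl11 each time. The replicate block, which does not rest on a known pairing, also gained Ccl8 on days 1 and 2 and changed no other call, and same-numbered arrays deviated together on 7 of 7 days. The day 2 count moved from 7 to 4 with the most variable probe set. It was 0 with the 4 arrays of the day alone, where limma called 0 of 18194 genes and 4 members and 2412 genes had an unadjusted p under 0.05. The day 1 count was 4 with array weights and 3 with its 4 arrays alone, where the share of all genes called was 9.78% and 3.25%, against 3420 of 18194 genes with all arrays.

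Leaving out 1 array gave counts of 5 to 8 on day 1, 0 to 8 on day 2, 7 to 8 on days 3 and 4, 4 to 8 on day 7, 5 to 8 on day 10, 7 to 9 on day 17 and 8 to 8 over all days. The ranges were 0 to 6 for the interaction, 0 to 4 for day 1 minus later days, 0 to 2 for late minus early, 0 to 5 for control by day and 3 to 9 for CLA by day. The day 2 count was 0 without control day 2 replicate 2, 1 without CLA day 2 replicate 2 and 4 without CLA day 2 replicate 1. The day 7 count was 4 without CLA or control day 7 replicate 2, and the day 10 count was 5 without CLA day 10 replicate 2 or either control array of that day. The cause was not tested, and the fit then assumes that a lone array varies like the other groups. The shares of all genes called in these runs are not given here. Whether the members moved more than all genes therefore cannot be read from these counts or from those of such runs above given without a share.

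No called value of a member reversed. Uncalled values that changed sign were those of Ccl11 on day 1 (-0.21 to 0.45), day 4 (-0.305 to 0.055), day 7 (-0.15 to 0.03) and day 10 (-0.04 to 0.53), all with 1 array left out. For day 1 minus later days they were Ccl11 (-0.53 to 0.13), Ccl4 (-0.16 to 0.37) and Ccr2 (-0.66 to 0.038). For late minus early they were Ccr2 (-0.36 to 0.17, and 0.06 with the most variable probe set), Ccl3 (-0.49 to 0.28) and Ccl8 (-0.40 to 0.57).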

Other observations

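Ccl24, eotaxin 2, was singled out after its values were seen. It was lower on CLA on days 3, 4, 7 and 10, at -1.43, -1.27, -0.98 and -0.81 (adjusted p = 0.000119, 0.00032, 0.00441 and 0.016), and did not pass on days 1, 2 and 17, at 0.43, -0.59 and 0.18. Over all days it did not pass (-0.64 ± 0.22, adjusted p = 0.0514), and the interaction test passed with adjusted p = 0.00239. Ccrl2, an atypical receptor that binds chemerin and was chosen in the same way, was lower on days 2 and 3 (-0.57 and -0.45) and higher on days 7 and 10 (0.71 and 0.70), with adjusted p = 0.00113 for the interaction. Of 7 mast cell markers, Cpa3, Cma1 and the IgE receptor gene Fcer1a were higher on day 7 (1.32, 1.12 and 1.17), the same 3 and Tpsb2 on day 10 (1.52, 1.28, 1.40 and 1.38), and these 4 and Mcpt4 on day 17 (2.39, 2.12, 1.29, 2.04 and 1.53). Kit and Ms4a2 did not pass on any of these days. On day 1, 3 of 9 neutrophil markers were higher, S100a9 by 3.48, S100a8 by 2.57 and Csf3r by 0.72, and the other 6, Mpo, Elane, Cxcr2, Ngp, Camp and Ltf, did not pass, at -0.05 to 0.22. The mean log2 value of the 9 was 4.83 to 5.03 on the CLA arrays of that day and 4.06 to 4.14 on its control arrays.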
